A study of Mus musculus with 14 samples.

Results

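The microglia of the pontine nuclei (PN) at postnatal day 5 (P5) were the cells described here, and they were chosen by raw counts of unique molecular identifiers (UMIs) in single-cell RNA-seq (scRNA-seq). A cell was a member if it held at least 1000 genes, under 10% mitochondrial UMIs, 10 or more UMIs of *C1qa* and *C1qb* together, 3 or more of *Cx3cr1* and no more than 4 of the neuronal transcript *Mapt*. The rule chose 717 of 11300 kept cells in P5 library 1 and 467 of 6608 in library 2, 1184 of 17908 kept P5 cells in all. The whole series held 122658 kept cells in 14 libraries. *C1qa*, *C1qb*, *Cx3cr1* and *Mapt* chose the members, so every level of the members against other cells is a description and was not tested.

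Both P5 libraries came from control C57BL/6J pups that carried *Atoh1*Cre/+ and *Rosa* lsl-tdTomato/+, and PN dissected from several pups were pooled into each. In these controls Cre stands in place of 1 *Atoh1* coding region, so they hold a single functional copy of *Atoh1*, and Cre marks *Atoh1*-lineage cells with tdTomato. The embryonic libraries held whole hindbrain of 1 embryo each at E14.5 or E18.5, from the same kind of control or from *Atoh1*S193A/- littermates, in which the allele with a mutated serine faces a null one. All samples were digested with papain at 37°C and sorted for tdTomato-positive, DAPI-negative cells, and every P5 sample was labelled as neurons. The P5 samples formed 1 group, so the members were compared between its 2 libraries and with the embryonic controls.

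Microglia are the resident macrophages of brain tissue. They descend from yolk sac progenitors, not from the *Atoh1* lineage of the rhombic lip, and they depend on signals through the receptor Csf1r. In the first postnatal week they divide, clear dying cells and, through complement and phagocytic receptors, take up synaptic material. The brain borders (meninges, choroid plexus and perivascular spaces) hold related macrophages that express *Mrc1*, *Pf4*, *Lyve1* and *Cd163* and little of the microglial receptor gene *P2ry12*.

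The members made up 6.35% (exact binomial 95% interval, 5.90 to 6.81) and 7.07% (6.46 to 7.71) of kept cells in P5 libraries 1 and 2. Intervals cover counting error only. In the embryonic libraries the same rule found 38 of 49696 kept cells at E14.5 and 54 of 55054 at E18.5, between 0 and 12 cells per E14.5 library and between 2 and 22 per E18.5 library. E14.5 *Atoh1*S193A/- replicate 2 held 0 such cells of 8303, which allows a share of up to 0.0361% by a floor of 3 cells and up to 0.0444% by the exact interval. The mean share was 0.0770% ± 0.0487 (SD, n = 6) at E14.5, 0.0994% ± 0.0890 (SD, n = 6) at E18.5 and 6.71% ± 0.51 (SD, n = 2) at P5. The shares of both P5 libraries lay above those of all 12 embryonic libraries, but age cannot be told apart from the dissected tissue and the pooling of pups. These are shares of cells sorted for tdTomato, and how cells outside the *Atoh1* lineage passed the sort was not tested, so they are no measure of microglia in the tissue.

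The members were shallower than the neurons around them. Their median depth was 10368 and 10968 UMIs per cell in libraries 1 and 2, with 3086 and 3012 genes, against 26734.5 and 30113 UMIs in the P5 neurons (6292 and 3815 cells with 10 or more *Mapt* UMIs). The reporter transcript, read through its WPRE element, was at 79.2 and 35.5 UMIs per 1000000 (CPM) in members and 377 and 416 CPM in neurons. The 15 neuronal marker genes listed stood in members at a median of 7.69% and 2.41% of their level in neurons. Those percentages were 6.95% and 3.41% in astrocytes of the same libraries and 7.68% and 2.78% in the oligodendrocyte lineage. In members the 15 genes ran from 5.21% to 12.2% in library 1 and from 1.32% to 4.78% in library 2. The reporter transcript stood above these ranges in members, at 21.0% and 8.54% of its level in neurons. It was at 23.6% and 15.1% in astrocytes and at 23.5% and 8.31% in the oligodendrocyte lineage, and the cause was not tested. The oligodendrocyte lineage also held neuronal list genes at a level of its own, with *Elavl3* at 131% and 159% and *Map1b* at 29.2% and 29.4% of neurons. Only 38 barcodes were common to both P5 libraries and no barcode was a member in both.

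Near the limits of the rule, 3 and 2 cells missed it with 5 to 9 *C1q* UMIs, while 14 and 3 members had 10 to 14. The *Cx3cr1* limit passed through a populated range. With 2 UMIs of *Cx3cr1*, 29 and 20 cells were left out, and with 3 UMIs, 22 and 15 were kept. The 99 and 79 cells left out with 0 to 2 *Cx3cr1* UMIs held 4184 and 6789 CPM of *Pf4* and 145 and 146 CPM of *P2ry12*, the pattern of border macrophages. The *Mapt* limit left out 141 and 51 cells with 5 or more *Mapt* UMIs, whose median depth was 26032 and 36682 UMIs and of which 93 and 44 were among the highest 7.5% of doublet scores given by Scrublet. Among members, 36 and 8 had scores that high.

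The label held for most members. All 20 genes of a microglial identity list were at least 4-fold above all other kept P5 cells in both libraries, on the CPM + 1 scale. *P2ry12*, the purinergic receptor that guides microglial processes, was at 806 and 795 CPM in libraries 1 and 2 and was seen in 91.5% and 93.8% of members. In neurons it was at 0.558 and 0.266 CPM and was seen in 1.53 and 0.865% of cells, which were deeper. *Tmem119*, a surface protein gene that marks microglia among brain macrophages, was at 118 and 124 CPM. *Sall1*, a repressor needed for microglial identity, was at 129.9 and 103 CPM in members, but was also found in astrocytes at 25.8 and 25.4 CPM and in the oligodendrocyte lineage at 46.8 and 49.2 CPM. The Fc receptor-like gene *Fcrls* was at 1492 and 1497 CPM. *Trem2*, a lipid-sensing receptor gene, was at 1111 and 1286 CPM, and its signalling adaptor *Tyrobp* at 3003 and 3217 CPM. *Cst3* was at 8874 and 8739 CPM in members and 9335 and 9523 CPM in astrocytes, and *Sparc* at 1527 and 1496 CPM in members and 1796 and 2422 CPM in astrocytes, so both were as high or higher outside the members.

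**Figure D1:**
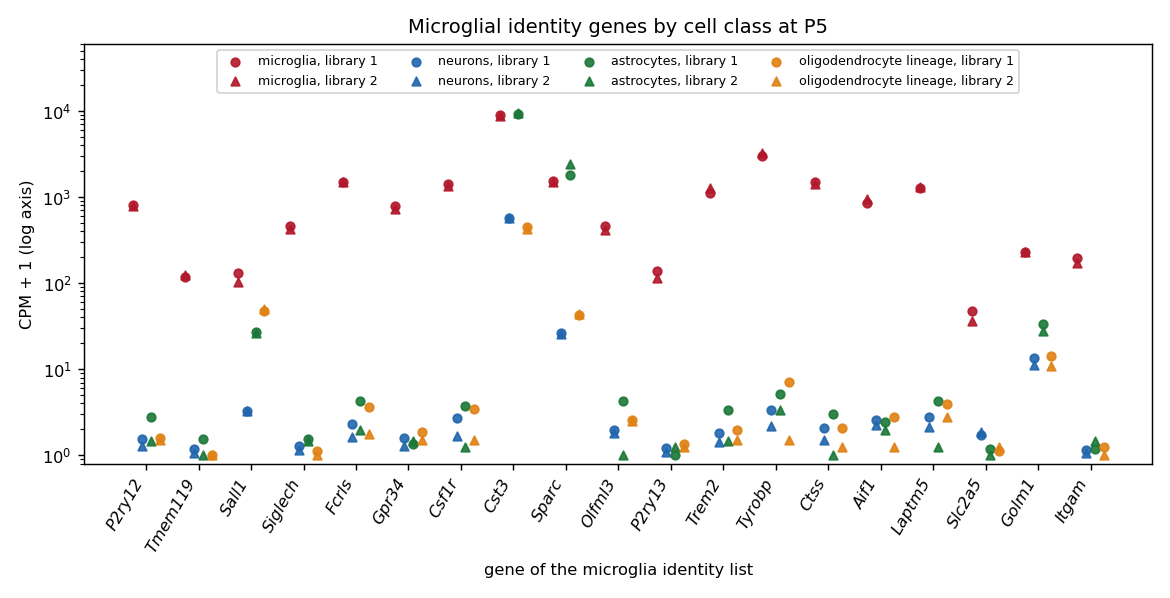
CPM + 1 (log axis) of 19 identity genes in microglia, neurons, astrocytes and the oligodendrocyte lineage, with a circle for P5 library 1 and a triangle for library 2. The microglial points of the libraries nearly coincide and stand above the other classes for every gene drawn but *Cst3* and *Sparc*, for which astrocytes stood as high or higher.

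The markers of blood cells had few UMIs or none. Of 12 such genes, 7 had no UMI in any of the 1184 members, which by a floor of 3 cells allows up to 0.253% of cells with a UMI of each and does not limit cells that express it without one. They included the monocyte gene *Ly6c2*, the neutrophil gene *S100a9*, the T cell gene *Cd3e* and the B cell gene *Ms4a1*. *Ccr2*, the chemokine receptor of circulating monocytes, was at 0.522 and 0.901 CPM. Of the 12 genes, 9 and 10 were under 1 CPM, and *Plac8* was the highest at 12.7 and 12.3 CPM. The hemoglobin gene *Hbb-bs* was above 1 CPM in both libraries and *Hba-a1* in library 1. The 12 genes summed to 23.5 and 15.7 CPM, against 26973 and 26878 CPM for the identity list.

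Across all genes seen in at least 25% of members of both libraries (4138 genes), 676 were 4-fold or more above all other kept P5 cells in both, 451 were 8-fold or more above them, and 108 were 4-fold or more below them. The 20 genes with the highest fold were *Cx3cr1*, *P2ry12*, *Ctss*, *Siglech*, *Gpr34*, *Ly86*, *Fcrls*, *Ccl3*, *Crybb1*, *Ccl4*, *C1qa*, *Csf1r*, *Trem2*, *C1qc*, *Mpeg1*, *Laptm5*, *C1qb*, *Gpr84*, *Bcl2a1b* and *Atf3*. Besides surface receptors and complement genes these held the chemokine genes *Ccl3* and *Ccl4* and the stress-induced transcription factor gene *Atf3*. *Siglech*, a sialic acid-binding lectin gene, was at 465 and 429 CPM, *Crybb1*, a crystallin gene, at 667 and 631 CPM and *Gpr84*, a receptor for medium-chain fatty acids, at 404 and 605 CPM.

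Most of the listed transcription factor genes of the macrophage lineage stood above their level in the other cells. *Spi1*, which encodes the lineage factor PU.1, was at 355 and 484 CPM in members and at 0.265 and 0.121 CPM in neurons. *Irf8*, a partner of PU.1, was at 223 and 205 CPM. *Mef2c* was at 779.6 and 704 CPM against 27.2 and 25.5 CPM in neurons. Of 16 transcription factor genes listed, *Mef2a* and *Bhlhe41* were below 4-fold over the other cells, and *Bhlhe40* was lower in members than in astrocytes at 1.04 and 1.62 against 34.5 and 41.3 CPM. The other 13 were 4-fold or more above the other cells in both libraries.

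Promoters are shown for *C1qb* and *C1qc*, neighbouring subunit genes with like levels, for *Trem2*, and for *Pf4*, a gene used below to define a range of border macrophage cells. Each window runs 5′ to 3′ in the direction of its gene, from 250 bases before to 50 after the start in RefSeq (GRCm38.p6), at chr4:136886151-136886450 on the minus strand for *C1qb*, chr4:136892865-136893164 on the minus strand for *C1qc*, chr17:48346151-48346450 on the plus strand for *Trem2* and chr5:90772185-90772484 on the plus strand for *Pf4*. Capitals mark the letters GAGGAA, the core that PU.1 is known to bind, or their complement.
C1qb: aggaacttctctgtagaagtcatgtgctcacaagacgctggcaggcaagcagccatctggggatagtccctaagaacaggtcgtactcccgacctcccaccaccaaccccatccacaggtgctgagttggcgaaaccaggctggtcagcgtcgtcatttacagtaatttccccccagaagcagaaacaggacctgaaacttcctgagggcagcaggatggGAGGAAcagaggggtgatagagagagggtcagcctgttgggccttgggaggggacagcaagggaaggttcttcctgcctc
C1qc: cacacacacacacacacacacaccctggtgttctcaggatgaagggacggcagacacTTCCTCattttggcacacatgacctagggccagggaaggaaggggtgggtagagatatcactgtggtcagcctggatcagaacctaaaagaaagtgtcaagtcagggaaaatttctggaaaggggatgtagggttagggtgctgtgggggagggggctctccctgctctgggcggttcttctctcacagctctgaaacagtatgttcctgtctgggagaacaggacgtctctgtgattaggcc
Trem2: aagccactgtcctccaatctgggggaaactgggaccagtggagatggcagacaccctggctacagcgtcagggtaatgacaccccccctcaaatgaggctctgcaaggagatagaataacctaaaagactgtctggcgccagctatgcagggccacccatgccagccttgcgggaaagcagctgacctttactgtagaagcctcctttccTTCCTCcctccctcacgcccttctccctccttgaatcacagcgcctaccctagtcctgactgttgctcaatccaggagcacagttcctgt
Pf4: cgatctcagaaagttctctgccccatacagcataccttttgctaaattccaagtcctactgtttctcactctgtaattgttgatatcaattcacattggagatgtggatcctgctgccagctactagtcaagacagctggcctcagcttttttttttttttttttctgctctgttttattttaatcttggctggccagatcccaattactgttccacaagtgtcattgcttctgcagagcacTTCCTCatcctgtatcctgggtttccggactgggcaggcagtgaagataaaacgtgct

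Each of these windows held the letters GAGGAA once on either strand, and those of *C1qc* and *Pf4* held the longer GAGGAAGT, which overlaps it. Of 26742 promoters of the same length in the RefSeq table, 28.1% held GAGGAA and 3.17% held GAGGAAGT. Of the 676 genes 4-fold or more above the other P5 cells, 518 matched a promoter, and 36.9% of these held GAGGAA and 7.92% held GAGGAAGT. The *P2ry12* and *Cx3cr1* windows held neither. A match of letters is a description and no measure of binding.

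Complement was led by the subunits of C1q, the recognition molecule of the classical pathway. *C1qa* and *C1qb*, which the rule used, were at 3982 and 4299.7 CPM and 3987 and 4640.1 CPM. *C1qc*, the third subunit, which the rule did not use, was at 3281 and 3564 CPM and was seen in 100% of members of both libraries. Across cells thinned to 3000 UMIs (699 and 461 cells), *C1qb* and *C1qc* had a Spearman correlation of 0.40 and 0.52, as a description of cells that share a library and a capped depth. The central component *C3* was near the floor at 1.31 and 1.08 CPM, while the receptor gene for its fragment C3a, *C3ar1*, was at 348 and 429 CPM and *Itgam*, a chain of complement receptor CR3, at 195 and 171 CPM. *C4b* was at 3.79 and 2.88 CPM in members against 33.1 and 23.3 CPM in astrocytes. Among 11 complement genes, 9 were 4-fold or more above the other P5 cells, and *C3* and *C4b* were not.

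Of 19 phagocytic receptor and bridging protein genes, 14 and 15 were 4-fold or more above the other cells, and the list summed to 7861 and 8290 CPM in members against 831 and 845 CPM in astrocytes. *Mertk*, a receptor for dying cells, was at 113 and 96.2 CPM in members and 41.8 and 27.5 CPM in astrocytes. A few genes of the list were higher in astrocytes. *Axl*, a relative of *Mertk*, was lower in members at 9.4 and 16.9 CPM than in astrocytes at 35.2 and 39.9 CPM. *Gas6*, a bridging ligand gene of both receptors, was at 262 and 227 CPM in members, and *Pros1*, a bridging ligand gene of *Mertk*, at 77.8 and 76 CPM. The bridging protein gene *Mfge8* had its main level in astrocytes (511 and 573 CPM, against 20.8 and 14.2 CPM in members), as did the engulfment receptor gene *Megf10* (22 and 24 against 1.04 and 0.36 CPM). The Fc receptor chain *Fcer1g* was at 2211 and 2294 CPM and *Fcgr3* at 422 and 457 CPM.

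Lysosomal genes were high as a group, with 15 of 16 at 4-fold or more above the other cells and a summed level of 20906 and 22099 CPM against 1148 and 1245 CPM in neurons. The proteases *Ctsb*, *Ctsd* and *Ctss* were at 3019.7 and 3273, 3034 and 3076 and 1508 and 1420.1 CPM. *Psap*, which encodes the precursor of the saposins, was the exception, with 791 and 746 CPM in members and 609 and 569 CPM in astrocytes. *Cd68*, a lysosomal glycoprotein of phagocytes, was at 491 and 563 CPM.

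Of 11 lipid handling genes, 9 were 4-fold or more above the other cells in both libraries, while the list summed to 13146 and 14227 CPM in members and 35030.1 and 39149 CPM in astrocytes. *Apoe*, the main lipid carrier of the brain, was at 9286 and 10147 CPM in members, below the 28624 and 31576 CPM of astrocytes and above the 219.8 and 160.2 CPM of neurons. The cholesterol exporter gene *Abca1* was at 445 and 473 CPM in members and 353 and 378 CPM in astrocytes. *Lpl*, lipoprotein lipase, was at 429.6 and 338 CPM against 29.2 and 31.8 CPM in astrocytes. *Ch25h*, the cholesterol 25-hydroxylase gene, was at 0.392 and 0 CPM.

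Antigen presentation genes were high for class I and low for class II. The class I light chain *B2m* was at 1241 and 1143 CPM and the heavy chain *H2-D1* at 262 and 315 CPM. The class II chains *H2-Aa* and *H2-Eb1* were at 0.392 and 0.36 CPM and 0.392 and 0.36 CPM, with 3 and 2 and 3 and 2 UMIs in the libraries. Another class II chain, *H2-Ab1*, was at 3.92 and 5.04 CPM (30 and 28 UMIs), against 2.72 and 2.96 CPM in neurons and 8.54 and 7.36 CPM in astrocytes. *Ciita*, the class II master regulator, was at 0 and 0.18 CPM. The invariant chain *Cd74* stood apart from the chains it serves, at 65 and 126 CPM, and the costimulatory ligand *Cd86* was at 150.1 and 168 CPM.

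Most purinergic genes, like *P2ry12*, stood above their level in the other cells. The related receptor *P2ry13* was at 138 and 114 CPM, the uridine diphosphate receptor *P2ry6*, which triggers phagocytosis, at 176 and 190.3 CPM, and the ectonucleotidase *Entpd1* (CD39) at 166 and 169 CPM. Of 9 genes listed, 8 were 4-fold or more above the other cells in both libraries. The channel gene *P2rx4* was at 45.9 and 50.8 CPM against 22.3 and 20.9 CPM in the oligodendrocyte lineage.

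Of the listed genes of signals to microglia, 3 of 9 ligands and 8 and 9 of 9 receptors were 4-fold or more above the other cells in libraries 1 and 2. These receptors include *Cx3cr1*, which chose the members. Neurons held the inhibitory ligands *Cd200* and *Cd47* at 321 and 331 and 681 and 735 CPM, and members held their receptors *Cd200r1* and *Sirpa* at 17.4 and 17.8 and 378 and 348 CPM. *Cx3cl1*, the ligand of Cx3cr1, was low in neurons at 9.04 and 8.73 CPM. Of the ligands of Csf1r, *Il34* was at 0.999 and 0.974 CPM in neurons, and *Csf1* was at 211 and 232 CPM in the members themselves against 32.5 and 25.2 CPM in astrocytes and 1.21 and 0.644 CPM in neurons. *Csf1r* was at 1398 and 1329 CPM in members. *Tgfb2* was at 93.6 and 102 CPM in neurons and 132 and 129 CPM in astrocytes, while *Tgfb1* was at 185 and 222 CPM in members, which also held the receptor genes *Tgfbr1* at 236 and 286 CPM and *Tgfbr2* at 105 and 93 CPM. *Sema4d* had its main level in the oligodendrocyte lineage (687 and 766 CPM), and its receptor gene *Plxnb2* was at 138 and 120.2 CPM in members. Levels of mRNA do not measure signalling.

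**Figure D2:**
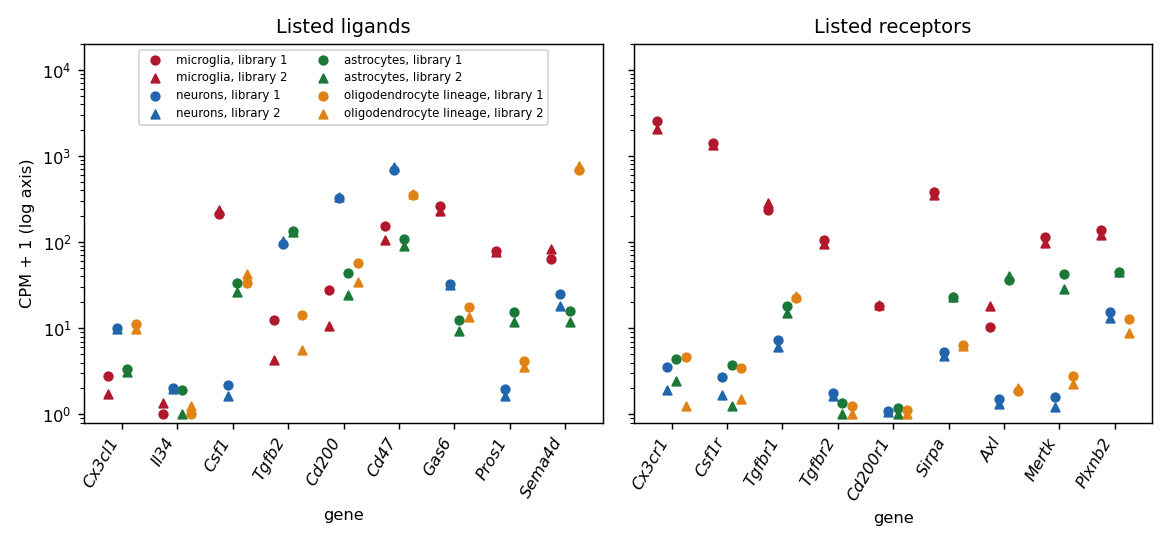
CPM + 1 (log axis) of 9 listed ligand genes (left) and 9 listed receptor genes (right) in microglia, neurons, astrocytes and the oligodendrocyte lineage, with a circle for P5 library 1 and a triangle for library 2. *Cd200*, *Cd47* and *Cx3cl1* stand higher in neurons than in microglia, *Csf1* stands highest in microglia, and all receptors but *Axl* stand highest in microglia, *Cx3cr1* by the rule that chose the cells.

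Chemokine and immediate early genes were high in members of both libraries. *Ccl3* and *Ccl4*, neighbouring chemokine genes, were at 2343 and 2612 CPM and 5186 and 6187 CPM, and their counts in thinned cells had a Spearman correlation of 0.70 and 0.67. *Tnf* was at 442 and 611 CPM, *Il1a* at 504 and 986 CPM and *Il1b* at 811 and 1648 CPM. Some cytokine genes stayed low, with *Il6* at 1.17 and 2.52 CPM and *Il10* at 4.05 and 13.5 CPM. The 19 chemokine and cytokine genes summed to 12556 and 16300 CPM against 208 and 195 CPM in neurons. Immediate early and dissociation response genes, which are known to rise in microglia during warm enzymatic digestion, summed to 18283 and 14619 CPM in members against 3518 and 4051 CPM in neurons of the same suspensions. In thinned cells both sums had a Spearman correlation of 0.49 and 0.48. The part that the digestion had in these levels was not tested.

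The P5 libraries were alike in most genes and differed in few. Over 2865 genes at a mean of 50 CPM or more, their Spearman correlation across genes was 0.944, where genes are no replicates, and 47 genes differed 2-fold or more. Of these, 33 were higher in library 1, and they included many neuronal transcripts (*Meg3* at 518 against 85.4 CPM, *Syt1* at 81.5 against 24.7 CPM) but also *Fos* (2080 against 830.0 CPM) and *Klf2*, a shear- and stress-responsive transcription factor gene (521 against 208 CPM). The 14 genes higher in library 2 included *Il1b* (811 against 1648 CPM), the inflammasome sensor gene *Nlrp3* (172 against 352 CPM), the NF-kappaB subunit gene *Nfkb1* (77.3 against 159 CPM), the histone demethylase gene *Kdm6b* (119 against 282 CPM) and the stress cytokine gene *Gdf15* (81.5 against 214 CPM). None of the 47 differed 2-fold in the same direction in the other kept cells. With 1 library on each side there is no test of these differences, and the cause was not tested.

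**Figure D3:**
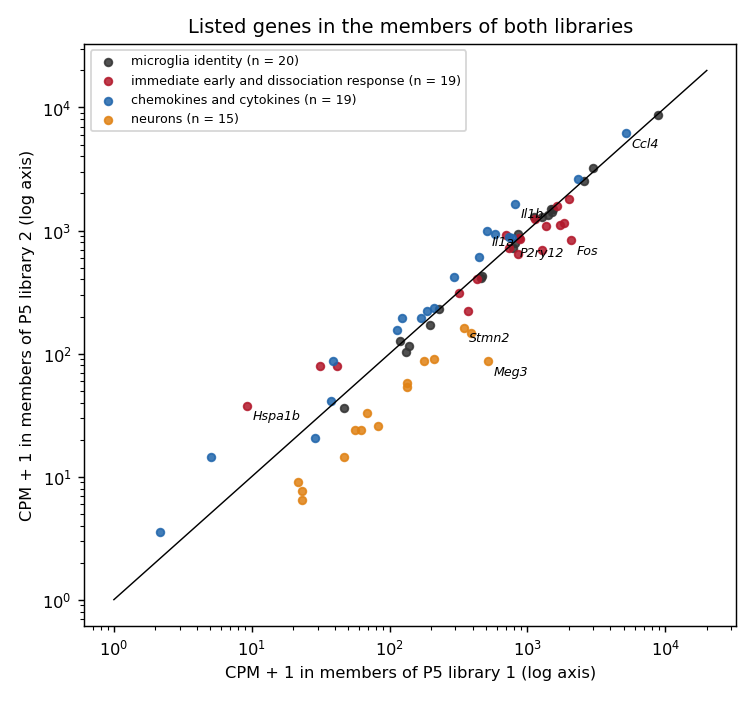
CPM + 1 of listed genes in the members of P5 library 1 (x, log axis) and library 2 (y, log axis), with 1 point per gene, colours by list and the line of equal levels. Identity genes lie along the line, neuronal genes (*Meg3*, *Stmn2*) and *Fos* lie below it, and *Il1a*, *Il1b* and *Hspa1b* lie above it.

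Members with G2/M transcripts were the most frequent of 4 ranges counted, each a sum of 5 or more UMIs over a fixed set of transcripts. A range on a sum is not a cell type. The G2/M sum ran over 18 genes and the other sums over fewer, so this ranking compares unlike sums. With 18 G2/M genes, 190 members of library 1 (26.5%, exact binomial 95% interval 23.3 to 29.9) and 139 of library 2 (29.8%, 25.7 to 34.1) passed, of which 36 and 20 had 5 to 9 UMIs. By the same sum, 3.85% and 4.35% of the deeper neurons, 6.94% and 8.39% of astrocytes and 14.6% and 17.8% of the oligodendrocyte lineage passed. Thinned to 3000 UMIs per cell, which left out 18 and 6 shallower members, 18.7% and 22.3% of members passed. *Mki67*, a gene of proliferating cells, was at 243 and 264 CPM over all members, and *Top2a*, the mitotic topoisomerase gene, at 273 and 287 CPM, against 72.4 and 60 and 105 and 97.1 CPM in the oligodendrocyte lineage.

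All 21 S phase genes, which the sum did not use, were higher in cells of the G2/M range than in the other members, in both libraries, with sums of 2210 against 652 CPM and 2078 against 565 CPM. *Pclaf*, a PCNA-associated factor gene, was at 499 and 453 CPM in the range and 7.7 and 5.51 CPM below it. Of other lists, 3 and 4 of 20 identity genes, 2 and 0 of 11 complement genes, 0 and 2 of 16 lysosomal genes, 0 and 1 of 11 lipid handling genes and 0 and 0 of 12 border macrophage genes were higher in the G2/M range. So were 1 and 5 of 15 neuronal, 0 and 0 of 12 astrocyte and 4 and 10 of 12 oligodendrocyte lineage genes. The share over all genes was not counted, so these counts show no loss particular to a list. Identity genes summed to 24542 against 28129 and 24647 against 28238 CPM. Of the cells in the border macrophage range, 32 of 115 and 21 of 93 were also in the G2/M range. The G2/M range was cut from the same cells, so these differences are descriptions with no test.

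**Figure D4:**
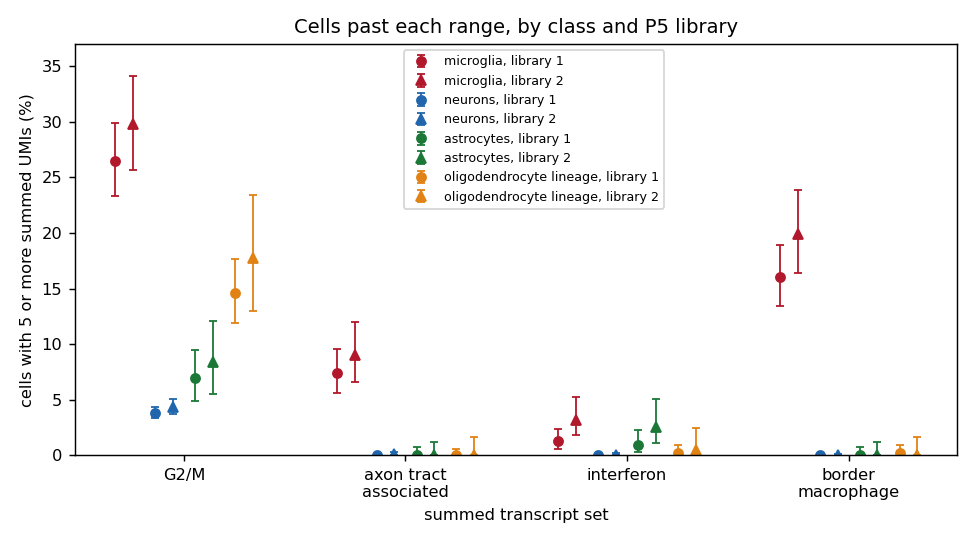
Share of cells (%) with 5 or more summed UMIs of each transcript set, by class and P5 library, with exact binomial 95% intervals as bars. Microglia stand highest for G2/M, axon tract associated and border macrophage transcripts, while the interferon shares of 1.26% and 3.21% overlap those of astrocytes within their intervals.

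A second range was defined by *Spp1*, *Gpnmb* and *Itgax*, transcripts of the amoeboid microglia found along developing axon tracts. It held 53 members of library 1 (7.39%, 5.59 to 9.56) and 42 of library 2 (8.99%, 6.56 to 11.96), and 2.29% and 2.60% after thinning. Near its limit, 21 and 17 of these cells had 5 to 9 UMIs and 22 and 13 members below it had 3 to 4. *Spp1*, which encodes osteopontin and carried nearly all of the sum, was at 2247 and 2278 CPM in the range and 21.8 and 18.7 CPM below it. Genes that the sum did not use were also higher in it. *Igf1*, a growth factor gene, was at 242 and 383 CPM against 99.4 and 126 CPM, *Lgals3*, a galectin gene, at 74.5 and 94.2 against 19.8 and 16.7 CPM, and *Fabp5*, a fatty acid-binding protein gene, at 776 and 1011 against 390.4 and 351 CPM. *Csf1* was at 353 and 445 against 197 and 205 CPM. All 16 lysosomal genes in library 1 and 15 in library 2 were higher in the range, with sums of 28739 against 20171 CPM and 31034 against 20963 CPM, and *Ctsd* alone was at 5141 and 5283 against 2836 and 2796 CPM. None of the 18 G2/M genes was higher in it, with *Mki67* at 105 and 110.2 against 256 and 284 CPM, and *Tmem119* was at 59.3 and 70.2 against 123 and 131 CPM. The share of all genes higher in this range was not counted, so the counts show no gain or loss particular to a list. The G2/M and axon tract ranges had 6 and 9 members in common, 11.3% and 21.4% of the axon tract range and 3.16% and 6.47% of the G2/M range, where 26.5% and 29.8% of all members were in the G2/M range.

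Few members passed for interferon-induced transcripts (*Isg15*, *Ifit1*, *Ifit2*, *Ifit3*), with 9 in library 1 (1.26%, 0.576 to 2.37) and 15 in library 2 (3.21%, 1.81 to 5.24). After thinning 4 and 1 cells passed. All 12 other interferon response genes were higher in these cells than in the other members in both libraries, among them *Oasl2* at 208 and 70.7 against 2.38 and 3.74 CPM and *Bst2*, the tetherin gene, at 923 and 475 against 226 and 259.7 CPM. Of these cells 6 of 9 and 4 of 15 were also in the border macrophage range, and border genes summed to 15582 CPM in library 1 and 3863 CPM in library 2 against 1662 and 2354 CPM in the other members. Chemokine and cytokine genes summed to 27681 and 26875 against 12383 and 15909 CPM, with 12 and 17 of 19 higher. Immediate early and dissociation response genes were higher for 11 and 17 of 19, and neuronal genes for 3 and 12 of 15. The share of all genes higher in these few cells was not counted, so the counts show no gain particular to a list.

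A border macrophage range differed in identity but adjoined the other members at its limit. With *Mrc1*, *Pf4*, *Lyve1* and *Cd163*, 115 members of library 1 (16.0%, 13.4 to 18.9) and 93 of library 2 (19.9%, 16.4 to 23.8) passed, and 10.2% and 12.4% passed after thinning. In these, 38 and 31 cells had 5 to 9 UMIs, and 57 and 38 members below the limit had 3 to 4. The mannose receptor gene *Mrc1* was at 2240.1 and 2209 CPM in the range and 65.6 and 60.8 CPM below it, and *Pf4*, a chemokine gene, at 3622 and 4121 against 3.27 and 1.81 CPM. The sum used both genes, so these gaps were set by the cut. The other 8 border macrophage genes, which the sum did not use, were all higher in the range in both libraries, with sums of 3700 against 109 CPM and 4188 against 88.7 CPM. *F13a1*, a coagulation factor gene of tissue macrophages, was at 672 and 559.6 against 0 and 0.227 CPM, *Ms4a7* at 410.2 and 473 against 0.156 and 1.36 CPM and *Ccl24*, an eosinophil attractant gene, at 1011 and 1398 against 9.67 and 4.08 CPM. Microglial genes were lower, with *P2ry12* at 465 and 488 against 872 and 875 CPM and *Tmem119* at 64.9 and 51.7 against 128 and 143 CPM. Of 20 identity genes 1 was higher in the range. The G2/M genes were higher in it for 18 of 18 in library 1 (sums of 2474 against 1529 CPM) and 12 of 18 in library 2 (1969 against 1919.97 CPM), while S phase genes were higher for 3 and 1 of 21. Astrocyte genes were higher in the range for 12 of 12 in library 1 (1539 against 681 CPM) and 4 of 12 in library 2 (445 against 626 CPM), and their part in these differences was not tested. The share of all genes higher in the border macrophage range was not counted, so the counts show no gain or loss particular to a list.

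Chemokine and phagocytic genes differed in both directions, with 9 and 11 of 19 chemokine and cytokine genes and 12 and 10 of 19 phagocytic genes higher in the border macrophage range. Here too the share over all genes was not counted. *Ccl4* was at 2252 and 4308 CPM in the range against 5757 and 6673 CPM below it, *Ccl3* at 1557 and 2244 against 2496 and 2708 CPM and *Tnf* at 322 and 509 against 465 and 638 CPM. The monocyte attractants *Ccl2* and *Ccl7* were at 2308 and 2775 and 1352 and 1768 CPM in the range and at 423 and 393 and 87.5 and 66.9 CPM below it. The scavenger receptor genes *Cd36* and *Stab1* were at 113 and 144 against 1.56 and 1.13 CPM and 458 and 359 against 103 and 80.5 CPM. *Il10* was at 24.8 and 65.7 CPM in the range and had no UMI in the other members of either library. *Cd200r1*, the receptor of the neuronal ligand *Cd200*, was at 56.9 and 53.4 against 9.67 and 8.62 CPM. *Gas6* was at 410.2 and 365 against 234 and 191 CPM and *Timd4*, a phosphatidylserine receptor gene of resident macrophages, at 11.2 and 10.5 against 0 and 0 CPM. The lysosomal gene *Ctsd* was lower at 1370.0 and 1503 against 3357 and 3484 CPM, and *Spp1* at 61.7 and 46.4 against 242 and 333 CPM.

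**Figure D5:**
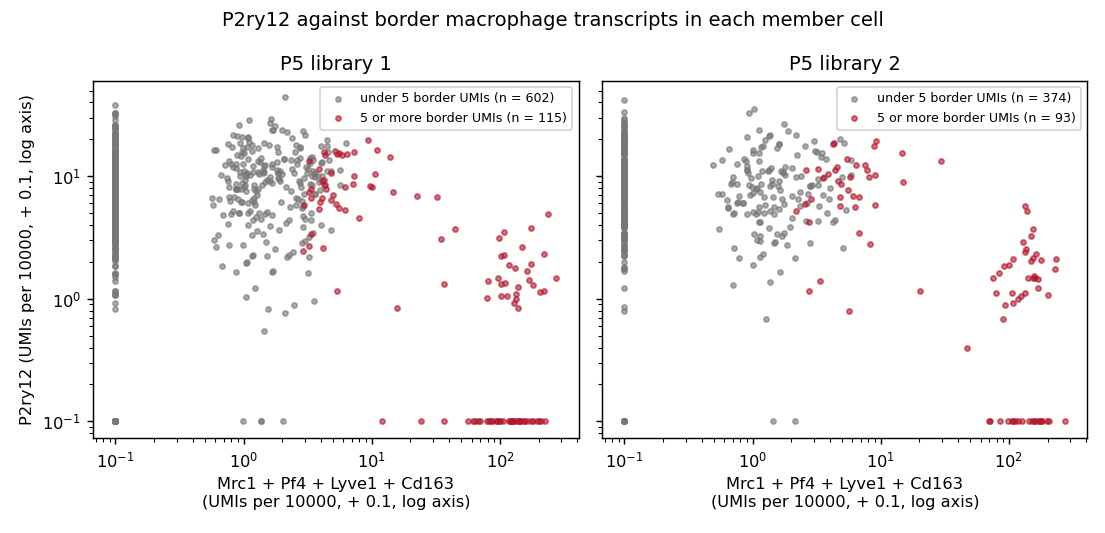
*P2ry12* (y) against the sum of *Mrc1*, *Pf4*, *Lyve1* and *Cd163* (x), both in UMIs per 10000 + 0.1 on log axes, with 1 point per member in P5 library 1 (left, n = 717) and library 2 (right, n = 467). Red points have 5 or more border UMIs (115 and 93 cells), and they form a tail that adjoins the grey cells and a separate group at high border and low *P2ry12* values.

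Clustering of all members gave 10 clusters. One of 114 cells (62 and 52 cells, 9.63% of members) had 7 genes of the border macrophage list among its top 10 genes by fold and was border-associated macrophage-like. It held *Pf4* at 7813 CPM and *Mrc1* at 3993 CPM, with *P2ry12* at 109.9, *Sall1* at 0.915 and *Tmem119* at 2.75 CPM, so the microglial label did not hold for these cells. *Csf1r* and *Trem2*, which both kinds of macrophage express, were at 1335 and 287 CPM. A cluster of 207 cells was led by G2/M genes (115 and 92 cells). The largest cluster drew 318 of its 351 cells from library 1 and the third 156 of its 172 from library 2, so they followed the library and were left unnamed, *Klf2* and *Fos* leading the former and *Bcl2a1a* and *Nlrp3* the latter. Clusters of 38 and 16 cells were led by astrocyte and by myelin transcripts, with 25 and 6 cells among the highest doublet scores, and were also left unnamed. A cluster of 143 cells (111 and 32 cells, 12.1% of members) had a median of 6551 UMIs and 8 of the highest doublet scores, and was left unnamed. Its top 10 genes held the neuronal genes *Meg3* and *Neurod1*, the prostaglandin synthase gene *Ptgds* and also *Spp1*, which carried nearly all of the axon tract sum. The remaining clusters held 106, 21 and 16 cells, led by the heat shock gene *Hspa1b*, by *Phkg1* and by the histone gene *Hist1h3d*, and stayed unnamed.

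Members were last set against the control cells of the same rule at E18.5, of which there were 5, 3 and 14 in replicates 1, 2 and 3, with 70418, 33713 and 228351 UMIs in all. *P2ry12* was at 1022, 682 and 596 CPM at E18.5 and at 806 and 795 CPM at P5, and *Trem2* at 1108, 1394 and 985 CPM and at 1111 and 1286 CPM. *Apoe* was at 7541, 8572 and 9201 CPM at E18.5 and 9286 and 10147 CPM at P5. *Pf4* was at 0, 0 and 889 CPM at E18.5, where 0, 1 and 5 of the cells were in the border macrophage range. The ages overlapped for *P2ry12*, *Trem2* and *Pf4*, and *Apoe* was higher in both P5 libraries. With equal numbers of cells (3 per library, drawn once at random), the log2 changes of *Apoe* (-1.01) and *Pf4* (-3.16) turned in sign, and neither gene was called with all cells. A draw of so few cells cannot tell the effect of cell number from that of the cells drawn.

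An edgeR quasi-likelihood test on the summed UMIs, chosen after seeing that too few cells were there for the intended limit of 10 per library, called 48 of 8772 genes at a Benjamini-Hochberg false discovery rate (FDR) under 0.05 and an absolute log2 change over 0.25. Of these, 24 genes (0.274% of those tested) rose at P5 and 24 genes (0.274%) fell, and 818 genes had an unadjusted p under 0.05. Rose and fell mean only higher and lower at P5 than at E18.5. Age cannot be told apart here from the dissected tissue (whole hindbrain or PN) and the pooling of pups. With no TMM factors, which moved the median log2 change of all genes from 0.09 to -0.06, 27 genes rose and 55 fell. The calls rested on few E18.5 cells, with 11, 0 and 19 genes called without E18.5 replicate 1, 2 or 3. None of the 20 identity genes was called, with a median log2 change of 0.45 against 0.09 over all genes tested.

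Among genes of microglial function, *Spp1* rose from 0, 59.3 and 61.3 CPM at E18.5 (0, 2 and 14 UMIs) to 213 and 274 CPM at P5. Its log2 change was 2.54 ± 0.43 (SE, FDR 0.00139 by edgeR). *Tnf* rose from 99.4, 148 and 215 CPM to 442 and 611 CPM (log2 change 1.81 ± 0.35, FDR 0.00623 by edgeR), and *Fosb*, an immediate early gene, from 28.4, 178 and 109 CPM to 368 and 221 CPM (1.74 ± 0.38, FDR 0.0186). The E18.5 and P5 values of these genes did not overlap, as for 34 of the 48 called genes. The share of all tested genes without overlap was not counted, so this adds no support to the calls. *Fosb* was the 1 gene called of 18 tested immediate early and dissociation response genes, whose median log2 change was 0.10 against 0.09 over all genes tested. In the random draw of 3 cells per library, the log2 change was -2.02 for *Spp1* and -0.26 for *Fosb*, both turned in sign. As 560 of 717 and 356 of 467 P5 members had no UMI of the axon tract sum, such a draw can miss the cells that hold *Spp1*. *Cd74* rose from 14.2, 59.3 and 8.76 CPM (1, 2 and 2 UMIs) to 65 and 126 CPM (2.79 ± 0.62, FDR 0.0223). *Spp1* was the 1 gene called of 10 tested axon tract genes. *Tnf* was that of 17 chemokine and cytokine genes and *Cd74* that of 5 antigen presentation genes. Of all genes tested, 0.274% were called higher. *Clec4a3*, a C-type lectin gene, was at 0, 0 and 4.38 CPM, the last being 1 UMI, and at 51.2 and 43.4 CPM (FDR 0.0181). It passed the limit of a UMI in 10% of cells only through P5, where it was higher, so its call is no support for a rise.

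Of the 18 G2/M genes, 2 fell at P5, against 0.274% of all genes tested. *Ccnb1*, the mitotic cyclin gene, fell from 170, 356 and 158 CPM at E18.5 to 40.5 and 53.3 CPM at P5 (log2 change -1.84 ± 0.31, FDR 0.00139 by edgeR), and *Ube2c*, which acts in mitotic exit, from 369, 564 and 293 CPM to 110.4 and 157 CPM (-1.24 ± 0.30, FDR 0.0497). The median log2 change of all 18 was -0.88, against 0.09 over all genes tested. *Mki67* was not called (log2 change -0.32, and 0.68 with equal numbers of cells), at 355, 475 and 328 CPM and 243 and 264 CPM. The rest of the E18.5 cells held 79.2, 58.0 and 52.2 CPM of *Ccnb1* and the rest of the P5 cells 3.64 and 8.54 CPM. For *Ube2c* the rest held 292, 229 and 201 CPM at E18.5 and 12.1 and 28.6 CPM at P5. For *Mki67* it held 273, 225 and 189 CPM and 11.3 and 24.2 CPM. *Slc16a3*, a lactate exporter gene, fell from 142, 89.0 and 96.3 CPM to 19.97 and 20.4 CPM (-2.24 ± 0.38, FDR 0.00139), and the rest of the cells held 6.89, 3.25 and 3.71 CPM of it at E18.5 and 1.19 and 1.17 CPM at P5.

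Most of the called genes moved in the same direction in the cells around the members. Of the 24 that rose, 21 were also higher by a log2 of 1 or more in the rest of the P5 cells, and of the 24 that fell, 18 were also lower by as much. The share of all tested genes that did so was not counted. The uncalled genes *P2ry12*, *Trem2* and *Apoe* were also higher in the rest at P5, by 2.35, 3.08 and 4.44. Of the rises, 12 stood above the rest in both P5 libraries, and 9 of the falls stood above it in all 3 E18.5 libraries. Of the listed genes tested, 3 of 9 astrocyte genes and 3 of 4 oligodendrocyte lineage genes were called higher, against 0.274% of all genes. Among the 10 largest rises of calls whose libraries did not overlap, the myelin genes *Mbp* and *Mag* rose by a log2 of 3.72 and 4.19 (-1.28 and -1.88 with equal numbers of cells) and *Ptprz1*, *Sparcl1* and *Mt3*, which glia are known to express, by 5.395, 5.46 and 4.08. *Mag*, *Ptprz1*, *Sparcl1* and *Mt3* had 0, 0 and 1 UMI each in the E18.5 libraries, so the sizes of their changes rest on a single UMI. The astrocyte gene *Fabp7*, a smaller rise, was higher by 2.54. *Aqp4*, the water channel gene of astrocytes, had no UMI in the E18.5 cells, and was at least 6.21-fold higher at P5 by a floor of 3 UMIs over the group. Like *Clec4a3*, *Mag*, *Ptprz1*, *Sparcl1* and *Mt3*, it passed the limit of 10% of cells only through P5, where it was higher. Of the 11 falls whose libraries did not overlap, a share that was not counted over all tested genes, the largest were of *Insm1*, *Gm9493* and *Hif3a*. *Insm1* is a gene of neuronal progenitors and was at 326, 260.5 and 248 CPM in the rest of the E18.5 cells. In members *Insm1*, *Gm9493* and *Hif3a* had 2, 1 and 21, 2, 2 and 11, and 1, 2 and 5 UMIs at E18.5. With 0 and 17, 6 and 8, and 11 and 5 UMIs at P5, they passed the limit of 10% of cells only through E18.5, where they were higher. Besides *Slc16a3* and *Ccnb1*, the 11 falls also held *C330027C09Rik* (a log2 change of 0.052 with equal numbers of cells), *Aaed1*, *Fam162a* and the histone genes *Hist1h4d* and *Hist1h4i*. Transcripts shared with the rest of the suspension moved with these changes, and their part in them was not tested.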

How the data were processed

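The deposited values were UMI counts per gene and cell in the .mtx matrices that the authors made with Cell Ranger 5.0.1, per the labels, on mm10 with the WPRE sequence added, with no normalization (31054 genes). The file headers of 2 E14.5 control libraries name an earlier Cell Ranger version. Total UMIs ran from 108239001 to 236964126 per library. Counts were summed per library and class and scaled to CPM. Neurons, astrocytes and oligodendrocyte lineage cells were chosen by raw UMIs of *Mapt*, *Slc1a3* and *Aldoc*, or *Olig1* and *Olig2*, with *C1qa* and *C1qb* at 4 or less together. Members were clustered with scanpy 1.11.5 (Leiden resolution 0.5), and doublets were scored with Scrublet and kept. *Clec7a* was not analysed here, and some genes that the lists or naming rules hold are counted but not reported here.

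The members and gene lists were chosen with earlier results of these data known. Genes named by level were the 20 with the highest fold over other P5 cells (CPM + 1, the lower library), and genes named by age were the 10 largest rises and 10 largest falls among calls whose libraries did not overlap, besides genes of the lists and the reporter. P5 was tested against E18.5 controls with edgeR 4.0.16 (quasi-likelihood, TMM), so age, dissected tissue and pooling were tested together. The test ran over genes with a UMI in 10% or more of the cells of either age, leaving out the genes of the rule. A gene could pass this filter only through the age where it was higher. The intended minimum of 10 cells per library, under which values were to be given with no test, was met by 1 of 3 E18.5 controls, so a minimum of 3 was set after seeing the data. On simulated counts (8776 genes) this test recovered 58% of genes changed by a log2 of 2 and 89% of those changed by 4, and called 9 unchanged genes. The labels call the P5 libraries independent replicates of pooled pups. The p-values rest on the spread between libraries, which at E18.5 also holds the sampling of only 5, 3 and 14 cells. They do not measure the spread between pups.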

Additional observations from a re-analysis of the deposited data

How the results depend on the processing

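The share of members (6.71% of kept cells, mean of the P5 libraries) was 6.20% with a *Mapt* limit of 2 and 5.49% without cells of the border macrophage range, an alternative chosen after seeing the data. With 3 or more, 10 or more, or 5 or more UMIs after thinning, the G2/M share (28.1%) was 35.1%, 23.5% and 20.5%, the axon tract share (8.19%) 11.1%, 4.91% and 2.45%, and the border macrophage share (17.98%) 26.0%, 12.01% and 11.3%. The interferon share (2.23%) was 3.76% with 3 or more UMIs, 1.06% with 10 or more and 0.395% after thinning. The count of 676 genes stayed within 1.5 times under all alternatives run. Of 298 gene levels in members, 113 moved by more than 1 SD of the P5 libraries without border macrophage range cells, 47 with a mitochondrial limit of 5%, 38 without the highest doublet scores, 31 with the *Mapt* limit of 2 and 17 with 20 or more *C1q* UMIs.

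The age calls (48, with 24 higher and 24 lower) were the least stable. They were 60 with DESeq2 (37 lower), 82 with no TMM factors (55 lower), 121 with no filter (66 higher and 55 lower), 81 with the E18.5 *Atoh1*S193A/- libraries added (38 higher and 43 lower), 73 without the highest doublet scores (40 lower), 10 with equal numbers of cells (1 higher and 9 lower) and 94 without border macrophage range cells (47 higher and 47 lower, chosen after seeing the data). Of the 48 genes, 23 were among the calls with DESeq2, 48 with no TMM factors, 48 with no filter, 46 with the added libraries, 46 without the highest doublet scores, 0 with equal numbers of cells and 41 without border macrophage range cells. Leaving out 1 library at a time gave 0 to 33 calls, 0 to 21 higher and 0 to 12 lower, with 22 calls without P5 replicate 1, 33 without P5 replicate 2, 11 without E18.5 replicate 1, 0 without E18.5 replicate 2 (711 genes at an unadjusted p under 0.05) and 19 without E18.5 replicate 3. With 3 cells per library, drawn once at random, the log2 changes of *Mag* (-1.88), *Mbp* (-1.28), *C330027C09Rik* (0.052), *Spp1* (-2.02), *Fosb* (-0.26), *Pf4* (-3.16), *Apoe* (-1.01) and *Mki67* (0.68) turned sign. The cause was not tested.

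Replicate numbers mark different animals at the 2 ages, so they do not pair the samples. Same-numbered libraries had a correlation of deviations of 0.11 and 0.09, and a fit with the replicate number as a block called 35 genes, 32 higher and 3 lower, of which 15 were among the 48. The E18.5 controls held 22 cells of the rule in all, which limits the depth of the age comparison.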

Other observations

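Cells of the rule in the *Atoh1*S193A/- embryos numbered 8, 0 and 8 at E14.5 and 8, 2 and 22 at E18.5 in replicates 1, 2 and 3, against 7, 3 and 12 and 5, 3 and 14 in the littermate controls. None of the 22 cells of E18.5 *Atoh1*S193A/- replicate 3 was left once the highest doublet scores of that library were removed, while all 22 control cells of E18.5 were left. Of the cells of the rule, 19 of 38 at E14.5, 16 of 54 at E18.5 and 208 of 1184 at P5 were in the border macrophage range. These are counts over few cells and were not tested.

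In P5 members, *Vtn*, the vitronectin gene that pericytes express, was at 1.44 and 36.0 CPM in libraries 1 and 2, and the 10 endothelial and pericyte genes summed to 22.5 and 64.5 CPM. In the border macrophage range of library 2, *Vtn* was at 174 CPM (199 UMIs), against 0.227 CPM (1 UMI) in the other members of that library, and made up most of the 218 CPM that the genes summed to there, while 4 of the 10 genes were higher in the range. In the range of library 1 *Vtn* was at 2.40 CPM.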
